A study of Homo sapiens with 12 samples.

Results

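The miR-200c141 cluster was compared directly with the miR-200ba429 cluster, each delivered alone, within 3 cell lines in which the family's own loci are methylated per the labels. The comparison rests on 7 of the 12 arrays of the series: 4 arrays of cells with miR-200c141 (2 from HUTU-80, 1 from MDST8 and 1 from NCI-H716) and 3 arrays of cells with miR-200ba429 (1 per line). They were chosen by their titles. The pair of HUTU-80 arrays with miR-200c141, whose titles end in 1:3 and 1:5, was averaged, which left 3 samples against 3, paired by line. The 3 control arrays, 1 per line, served to show on which side of the control level each cluster's value lay, and the 2 arrays of cells that carried both clusters entered no difference given below, other than one alternative fit over all samples and the choice of probe sets and of the background level. Cells with either construct had received lentivirus and had been sorted for GFP after 48 hours, and RNA was taken 7 days after transduction. No source used here gives what the control cells received or what the ratios 1:3 and 1:5 stand for. The array does not measure mature microRNAs, so the identity of a cluster and the amount of microRNA delivered cannot be told apart. The labels do not say whether the arrays came from separate cultures, and the errors below are standard errors (SE) of a model over the 3 pairs.

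The miR-200 family consists of small RNAs that bind to the 3′ untranslated regions of messenger RNAs and lower their abundance or translation, mainly through pairing of the seed at bases 2 to 8. Its members are transcribed as a pair of clusters on different chromosomes, and in epithelial cells they keep ZEB1 and ZEB2 low, a pair of transcriptional repressors of CDH1 and other epithelial genes. Loss of the family is a known feature of the transition of carcinoma cells to a mesenchymal state. HUTU-80 is known as a line of a duodenal carcinoma and NCI-H716 as a colorectal line with neuroendocrine traits.

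The mature sequences show what the clusters share and where they differ, with the seed in capitals (RefSeq, GRCh38.p14, plus strand). The 2 microRNAs of the miR-200c141 cluster lie at chr12:6963742-6963764 and chr12:6964155-6964176, and those of the miR-200ba429 cluster at chr1:1167160-1167181, chr1:1167916-1167937 and chr1:1169055-1169076, in the order given.
miR-200c-3p: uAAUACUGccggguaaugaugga
miR-141-3p: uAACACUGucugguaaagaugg
miR-200b-3p: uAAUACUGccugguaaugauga
miR-200a-3p: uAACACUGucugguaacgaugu
miR-429: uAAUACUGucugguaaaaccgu
Both clusters carry both seeds. The seed AAUACUG is present in 1 member of miR-200c141 and 2 members of miR-200ba429, and the seed AACACUG in 1 member of each. The seeds differ by U4C, counted from the 5′ end with the miR-200c base first. Outside the seed, miR-200c differs from miR-200b at 2 of the 22 positions they share (G11U and G22A) and from miR-429 at 7, while miR-141 differs from miR-200a at 2 (A17C and G22U). A target chosen by its seed is therefore a candidate target of both clusters.

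The values are log2 intensities. Medians of the 7 arrays lay between 3.60 and 3.64, and the correlation across genes was 0.992 or more within a line, 0.885 or less between lines, and 0.995 between the 2 HUTU-80 arrays with miR-200c141. The highest nonspecific control probe set, at 5.43, served as background, and 8026 of 19774 genes were measurable, that is, above background with at least 1 of the clusters in every line. Of 11 markers of colorectal epithelium, 10 lay at or below background in the control of HUTU-80 and 10 in that of MDST8, and 3 (CDX1, GPA33 and CDH1) in that of NCI-H716, so by these markers the labelled tissue was visible mainly in NCI-H716. All 17 immune markers lay at or below background in the HUTU-80 and MDST8 controls and 16 in the NCI-H716 control, and the 14 endothelial markers did so with 1 exception in MDST8. The distance between 3′ and 5′ probe sets of ACTB, a sign of RNA quality, was 2.15 and 2.39 with miR-200c141 and 2.10 with miR-200ba429 in HUTU-80, 1.497 and 1.515 in MDST8, and 2.405 and 2.374 in NCI-H716.

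No gene differed between the clusters past an adjusted p of 0.05 (limma with line as a term, 0 of 19774 genes, 0.0% called, smallest adjusted p = 0.2544). At an unadjusted p under 0.05, limma counted 997 genes (5.04%), of which 526 were higher (2.66%) and 471 lower (2.38%) with miR-200c141. With 3 pairs, an exact sign test of a single gene cannot give a two-sided p below 0.25. The genes described below are therefore given by their values and by whether the 3 lines had 1 sign, which held for 2704 genes higher with miR-200c141 (13.7% of all) and 2349 lower (11.9%). A difference of 1 sign in all lines with a mean of 1 log2 unit or more was seen for 13 genes higher with miR-200c141 (0.0657%) and 3 lower (0.0152%). Of the measurable genes, 4 (0.0498%) were in the higher set (VAMP8, CDS1, TMC4 and SEL1L3) and 1 (0.0125%) in the lower (OSTM1). In MDST8, VAMP8 and TMC4 counted as measurable through miR-200c141 alone, with miR-200ba429 under background, so the size of their means is limited by background. CDS1, SEL1L3 and OSTM1 were above background on all 7 arrays.

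Few genes stood far apart between the clusters in any line. A distance of 1 log2 unit or more between the clusters was seen for 17 of the 8026 measurable genes in HUTU-80 (0.212%), 63 in MDST8 cells (0.785%) and 39 in NCI-H716 (0.486%). The HUTU-80 count is lowered by averaging: it was 27 with the 1:3 array alone (0.336%) and 38 with the 1:5 array alone (0.473%). It lay below the NCI-H716 count each time, but only just with the 1:5 array, and the order of the lines was not tested. The 2 HUTU-80 arrays that both carried miR-200c141 were that far apart for 3 genes (0.0374%). The standard deviation of the difference over these genes was 0.229 in HUTU-80, 0.292 in MDST8 cells and 0.262 in NCI-H716, against 0.198 between the 2 HUTU-80 arrays of miR-200c141. In HUTU-80 the spread between 2 arrays of a single construct was thus not far below that between the clusters. The latter takes a mean of 2 arrays against 1, so these spreads are not fully alike. MDST8 and NCI-H716 have no 2 arrays of a single construct. Against the control of their line, 59 genes in HUTU-80 lay 1 or more away with miR-200c141 (0.735%) and 110 with miR-200ba429 (1.37%). In MDST8 these counts were 68 with miR-200c141 (0.847%) and 29 with miR-200ba429 (0.361%), and in NCI-H716 they were 115 (1.43%) and 49 (0.611%). Both sets of differences from control use the same control array in each line, so an error in it enters both.

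ZEB1, the repressor of epithelial genes that is the best known target of the family, was lower with miR-200c141 in every line. In HUTU-80 it stood at 7.92 and 7.99 on the arrays with miR-200c141, at 8.75 with miR-200ba429 and at 9.87 in the control. In MDST8 it stood at 7.94 with miR-200c141, 9.26 with miR-200ba429 and 9.39 in the control, and in NCI-H716 at 8.43, 8.85 and 10.14 in the same order. The value with miR-200ba429 lay between those of miR-200c141 and the control in each line, and in MDST8 it differed from the control by −0.13. The mean difference was −0.84 ± 0.16 (SE, 3 pairs, 95% interval −1.21 to −0.48), which did not pass over all genes (limma adjusted p = 0.9251). It was −0.50 when all ZEB1 probe sets were averaged and −0.61 without MDST8.

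ZEB2, the related repressor, was above background in MDST8, where it stood at 6.35 with miR-200c141, 7.59 with miR-200ba429 and 7.97 in the control. In HUTU-80 and NCI-H716 every array of either cluster was below background for ZEB2, so that its mean of −0.68 ± 0.23 rests on 1 measured line.

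**Figure D1:**
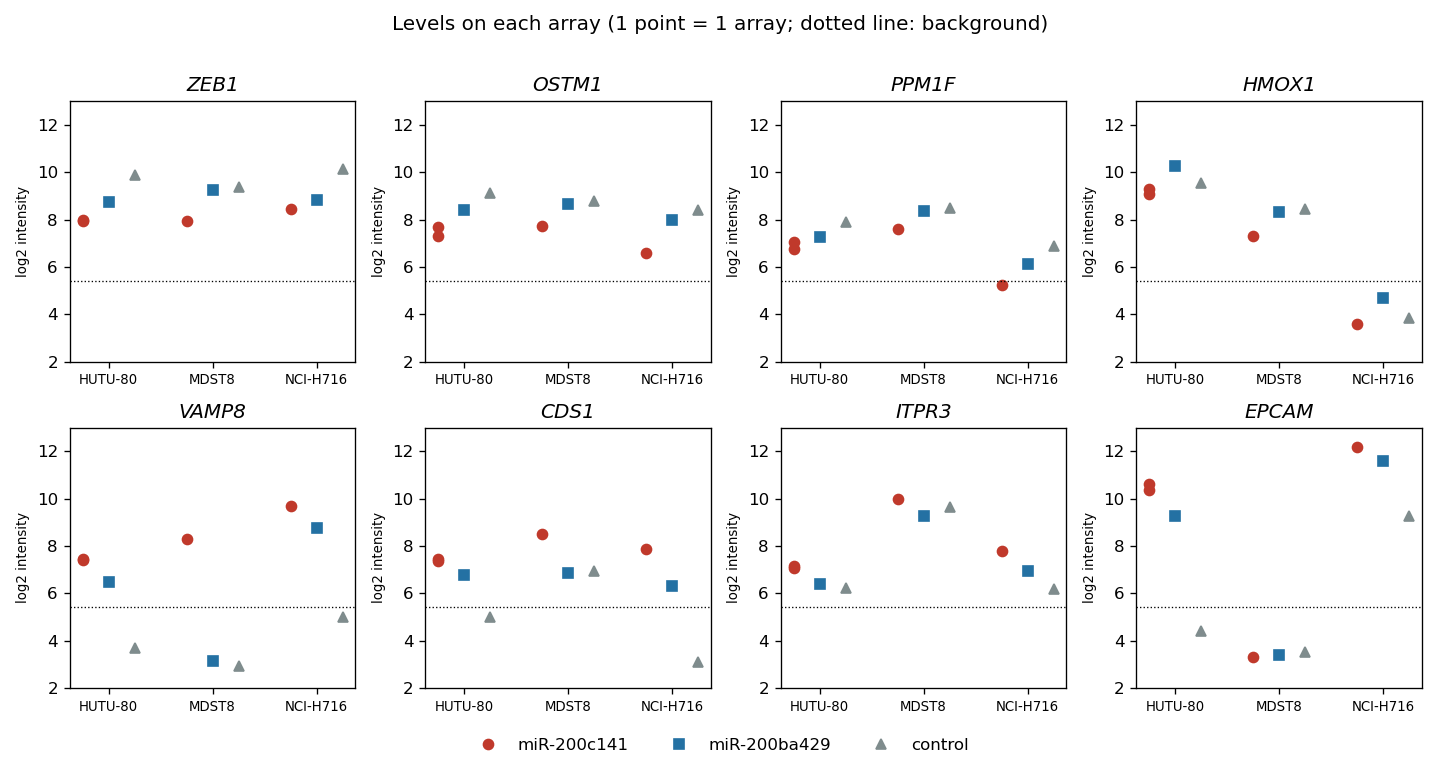
Log2 intensity of 8 genes on each array (vertical axis) by cell line, with miR-200c141 as circles, miR-200ba429 as squares and the line's control as triangles; the dotted line is background at 5.43. ZEB1, OSTM1 and PPM1F were lowest with miR-200c141 in each line, VAMP8, CDS1 and ITPR3 were highest with it, and in MDST8 the squares of VAMP8, CDS1 and ZEB1 sit beside the control.

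Most genes listed as targets of the AAUACUG seed had a negative difference. Of 46 listed, 44 were measured, 34 with a negative and 10 with a positive mean. The median was −0.179, against 0.009 over all genes, and medians by line were −0.176 in HUTU-80, −0.156 in MDST8 cells and −0.127 in NCI-H716. In all 3 lines 14 were lower (31.8%, against 11.9% of all genes) and 3 higher (6.82%, against 13.7%). At an unadjusted p under 0.05 limma counted 10 of the 44, all lower, and 0 passed over all genes. Of all genes, 2.38% were lower and 2.66% higher at that p. The list median lay between −0.21 and −0.129 under each other setting tried. It was −0.255, −0.188 and −0.257 with miR-200c141 relative to control, and −0.087, −0.035 and −0.258 with miR-200ba429 relative to the same controls, in HUTU-80, MDST8 and NCI-H716.

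Next to the ZEB genes in this list stood regulators of the cytoskeleton, secretion and growth factor signalling. PPM1F, a serine/threonine phosphatase that acts on actin regulators, stood at 6.78 and 7.04 with miR-200c141 in HUTU-80 and at 7.28 with miR-200ba429, at 7.60 and 8.38 in MDST8, and at 5.25 and 6.11 in NCI-H716. It was below the control of its line (7.91, 8.51 and 6.90) on all 7 arrays, with a mean difference of −0.67 ± 0.16. The same order of clusters was seen for ERRFI1, an inhibitor of the EGF receptor (−0.56 ± 0.16), SEC23A, a coat protein of vesicles that leave the endoplasmic reticulum (−0.50 ± 0.13), and CFL2, an actin-severing cofilin (−0.46 ± 0.14). SEC23A in NCI-H716, for instance, stood at 9.71 with miR-200c141, 10.64 with miR-200ba429 and 10.80 in the control. LOX, a collagen cross-linking enzyme, was above background with both clusters only in MDST8 (8.54 and 9.39). In NCI-H716 it stood at 4.95 with miR-200c141, under background, and 6.33 with miR-200ba429. Another LOX probe set above background had a mean difference of 0.18, against −0.77 with the one used.

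Other members of the list showed little distance between the clusters or the opposite sign. BMI1 and SUZ12, components of Polycomb complexes, differed by 0.03 ± 0.07 and −0.07 ± 0.10, with intervals of −0.14 to 0.19 and −0.28 to 0.14. The DNA methyltransferase DNMT3B was higher with miR-200c141 in all 3 lines (0.23 ± 0.15). QKI, an RNA-binding protein, was lower with miR-200c141 in HUTU-80 (10.30 and 10.50 against 10.62) and MDST8 (9.42 against 9.99) and was below background in NCI-H716. RECK, a membrane inhibitor of matrix proteases, was above background with miR-200ba429 in NCI-H716 (5.33 with miR-200c141 and 6.89 with miR-200ba429) and below it with either cluster elsewhere. Its mean of −0.63 ± 0.28 was 0.01 with all its probe sets averaged. TET1, which oxidises methylated cytosine, was lower with miR-200c141 in MDST8 and NCI-H716 and higher in HUTU-80, while MMP16, a membrane protease, had a mean of −0.20 ± 0.20.

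For the targets of the AACACUG seed, of which each cluster carries 1 member, the median was −0.073 over 26 measured genes of 30 listed. There were 18 with a negative and 8 with a positive mean. In all 3 lines 6 were lower with miR-200c141 (23.1%, against 11.9%) and 1 was higher (3.85%), and 0 passed over all genes. The medians by line were −0.099 in HUTU-80, 0.058 in MDST8 cells and −0.174 in NCI-H716. E2F3, a transcription factor of the S phase, stood at 8.18 and 8.47 with miR-200c141 and 8.59 with miR-200ba429 in HUTU-80, at 7.89 and 8.33 in MDST8, and at 7.95 and 8.41 in NCI-H716 (−0.39 ± 0.12). HIPK3, a kinase, was lower with miR-200c141 in HUTU-80 (8.58 and 8.76 against 9.37) and NCI-H716 (8.73 against 9.72) but not in MDST8 (8.95 against 8.83). Over all 3 lines the HIPK3 mean was −0.52 ± 0.18, which did not pass over all genes (limma adjusted p = 0.9251). Leaving out MDST8, the line of the other sign, gave −0.85, which passed (limma adjusted p = 0.03455). That fit has 1 residual degree of freedom.

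KEAP1, the sensor that marks the transcription factor NRF2 for degradation, was slightly lower with miR-200c141 in each line (−0.22 ± 0.12). HDGF, a growth factor, had a mean of 0.13 ± 0.09, and CTNNB1, the adhesion and Wnt protein beta-catenin, one of −0.02 ± 0.09. TGFB2, a ligand of the TGF-beta pathway, was higher with miR-200c141 in MDST8 (8.33 against 7.07), slightly lower in HUTU-80 (9.62 and 9.84 against 9.92) and below background in NCI-H716.

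**Figure D2:**
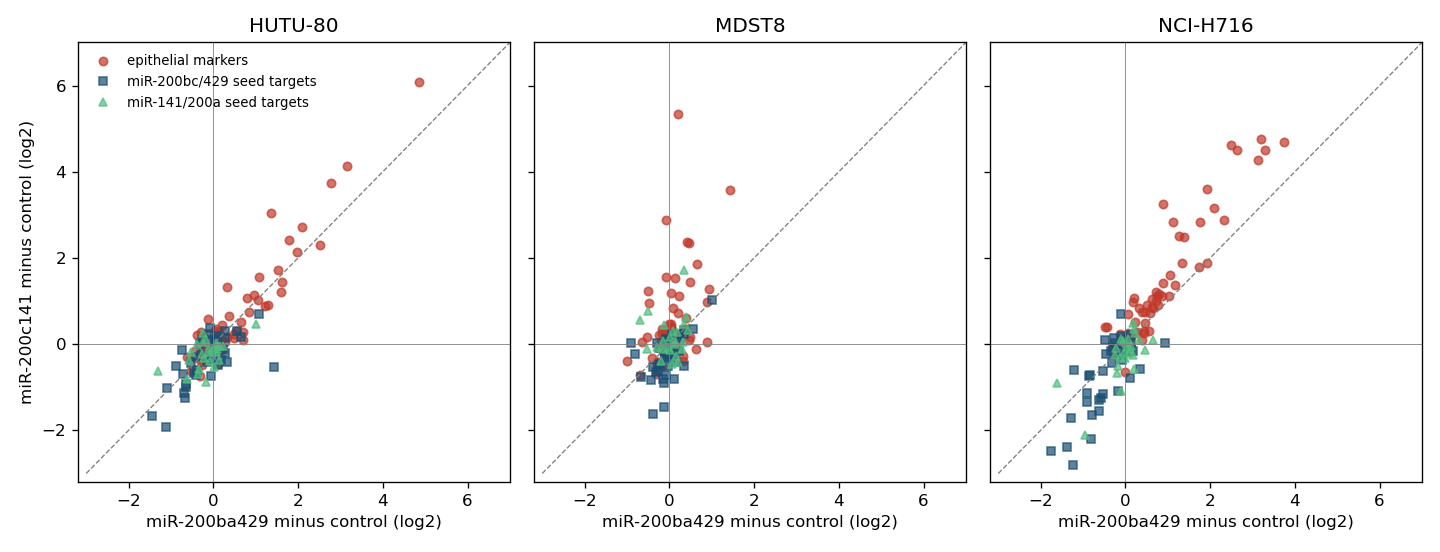
Log2 difference from the line's control with miR-200c141 (vertical axis) against that with miR-200ba429 (horizontal axis), 1 panel per line and 1 point per gene; circles are epithelial markers, squares targets of the AAUACUG seed and triangles targets of the AACACUG seed, and the dashed line marks equal differences. The axes share the control array of the line. In MDST8 the median of the epithelial markers was 0.22 on the vertical and 0.036 on the horizontal axis, and in NCI-H716 it was 0.967 and 0.637.

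The epithelial markers were mostly higher with miR-200c141. Of 57 measured markers (60 listed), 47 had a positive and 10 a negative mean, with a median of 0.270. In all 3 lines 16 were higher (28.1%, against 13.7% of all genes) and 2 lower (3.51%, against 11.9%). At an unadjusted p under 0.05 limma counted 17 of the 57, all of them higher, and 0 passed over all genes. Of all genes, 2.66% were higher and 2.38% lower at that p. The list median was 0.022 in HUTU-80, 0.265 in MDST8 cells and 0.358 in NCI-H716, and the median of the 3-line means was 0.401 without HUTU-80 and 0.139 without NCI-H716. In the controls 42 of the 57 lay at or below background in HUTU-80, 51 in MDST8 cells and 29 in NCI-H716. Only 11 markers were measurable, so many of these differences are between dim signals. Relative to control, the median of the list in HUTU-80 was 0.276 with miR-200c141 and 0.2 with miR-200ba429.

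VAMP8, a SNARE protein of vesicle fusion, was higher with miR-200c141 in each line. It stood at 7.45 and 7.43 with miR-200c141 in HUTU-80, at 6.47 with miR-200ba429 and at 3.70 in the control. In NCI-H716 it stood at 9.70 with miR-200c141, 8.76 with miR-200ba429 and 5.01 in the control. In MDST8 it reached 8.29 with miR-200c141, while miR-200ba429 at 3.14 and the control at 2.95 were both under background. The mean was 2.35 ± 0.65 (95% interval 0.90 to 3.81, limma adjusted p = 0.9251), a value set by the MDST8 pair, in which miR-200ba429 was not measured above background. Without MDST8 it was 0.95, almost equal in the remaining lines, and passed over all genes (limma adjusted p = 0.03455).

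CDS1, an enzyme that makes CDP-diacylglycerol for phospholipid synthesis, was above background on all 7 arrays. It stood at 7.45 and 7.37 with miR-200c141 and 6.77 with miR-200ba429 in HUTU-80, with 5.00 in the control. In MDST8 it stood at 8.51 with miR-200c141, against 6.87 with miR-200ba429 and 6.94 in the control, and in NCI-H716 at 7.87, 6.32 and 3.11 in the same order. In HUTU-80 both arrays of miR-200c141 lay above that of miR-200ba429, while the other lines have 1 array per cluster. With miR-200ba429 the value differed from control in HUTU-80 and NCI-H716 but not visibly in MDST8. The mean was 1.27 ± 0.20 (95% interval 0.83 to 1.72, limma adjusted p = 0.6315). It was 1.60 without HUTU-80, where it was the 1 gene called (limma adjusted p = 0.04378).

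TMC4, a member of the transmembrane channel-like proteins, stood at 5.46 with miR-200c141 and 3.73 with miR-200ba429 in MDST8, and at 7.17 and 5.51 in NCI-H716. In HUTU-80 the arrays overlapped, at 5.86 and 5.51 with miR-200c141 and 5.52 with miR-200ba429, and the mean was 1.19 ± 0.30. CD24, a surface glycoprotein, stood at 7.23 with miR-200c141 and 5.29 with miR-200ba429 in MDST8, whereas in HUTU-80 the array with miR-200ba429 (7.08) lay between those with miR-200c141 (7.68 and 6.85). KRT18, a keratin of simple epithelia, was higher with miR-200c141 in each line (0.65 ± 0.15), least in NCI-H716 (12.17 against 11.89) and most in MDST8 (11.75 against 10.55). Its partner KRT8 had a mean of 0.28 ± 0.16. PATJ, a scaffold of the apical Crumbs complex, stood out in MDST8 (6.37 against 3.40, under background) and not in NCI-H716 (6.92 against 6.98). Another PATJ probe set above background had a mean difference of 0.109, against 1.062 with the one used.

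The classical junction and adhesion genes did not follow 1 pattern. CDH1, the epithelial cadherin, stood in NCI-H716 at 8.52 with miR-200c141, 6.64 with miR-200ba429 and 4.01 in the control. In HUTU-80 it stood at 6.01 and 5.84 with miR-200c141 and at 5.30 with miR-200ba429, just under background, and in MDST8 it was under background with both (3.03 and 3.77). EPCAM, an epithelial adhesion molecule, stood at 10.36 and 10.63 with miR-200c141, 9.28 with miR-200ba429 and 4.42 in the control of HUTU-80, and at 12.18, 11.61 and 9.29 in NCI-H716. It was under background on each MDST8 array (3.31 with miR-200c141, 3.39 with miR-200ba429 and 3.52 in the control). Without MDST8 the EPCAM difference of 0.89 passed over all genes (limma adjusted p = 0.03455), against 0.57 ± 0.20 over all 3 lines, which did not pass. ST14, the membrane protease matriptase, was above background only with miR-200c141 in NCI-H716 (6.87, against 4.49 with miR-200ba429). MYO5B, a motor of apical transport, was higher with miR-200c141 in MDST8 (8.52 against 7.56) and NCI-H716 (10.62 against 10.35), and RAB25, a GTPase of apical recycling, was under background on all 7 arrays.

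Beyond the epithelial list, ITPR3 and SEL1L3 were among the 12 largest positive differences. ITPR3, a calcium channel of the endoplasmic reticulum, had nearly the same distance in each line. It stood at 7.14 and 7.09 with miR-200c141 and 6.396 with miR-200ba429 in HUTU-80, at 9.99 and 9.27 in MDST8, and at 7.77 and 6.95 in NCI-H716. The mean was 0.75 ± 0.12 (limma adjusted p = 0.6399), and it lay between 0.72 and 0.77 when any 1 line was left out. In MDST8 the control, at 9.65, lay between the clusters. SEL1L3 had a mean of 1.04 ± 0.21, with 8.50 and 8.32 against 7.91 in HUTU-80, 9.51 against 7.68 in MDST8, and 9.14 against 8.34 in NCI-H716. In MDST8 the SEL1L3 control, at 8.57, again lay between miR-200c141 and miR-200ba429.

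BICDL1, an adaptor between vesicles and microtubule motors, had a mean of 0.97 ± 0.40 that came from MDST8 (6.94 against 4.29), and without that line it was 0.13. SFN, the epithelial 14-3-3 protein sigma, had a mean of 0.75 ± 0.22, and PSEN2, a catalytic subunit of gamma-secretase, one of 0.74 ± 0.20. CTNNBIP1, an inhibitor of beta-catenin's binding to TCF factors, and the noncoding RNA OLMALINC each had a mean of 0.66 ± 0.20. In MDST8, BICDL1, CD24 and OLMALINC with miR-200ba429 were under background, as was PSEN2 in NCI-H716. Smaller but even differences were seen for DDHD2, a phospholipase and lipase (0.50 ± 0.11).

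**Figure D3:**
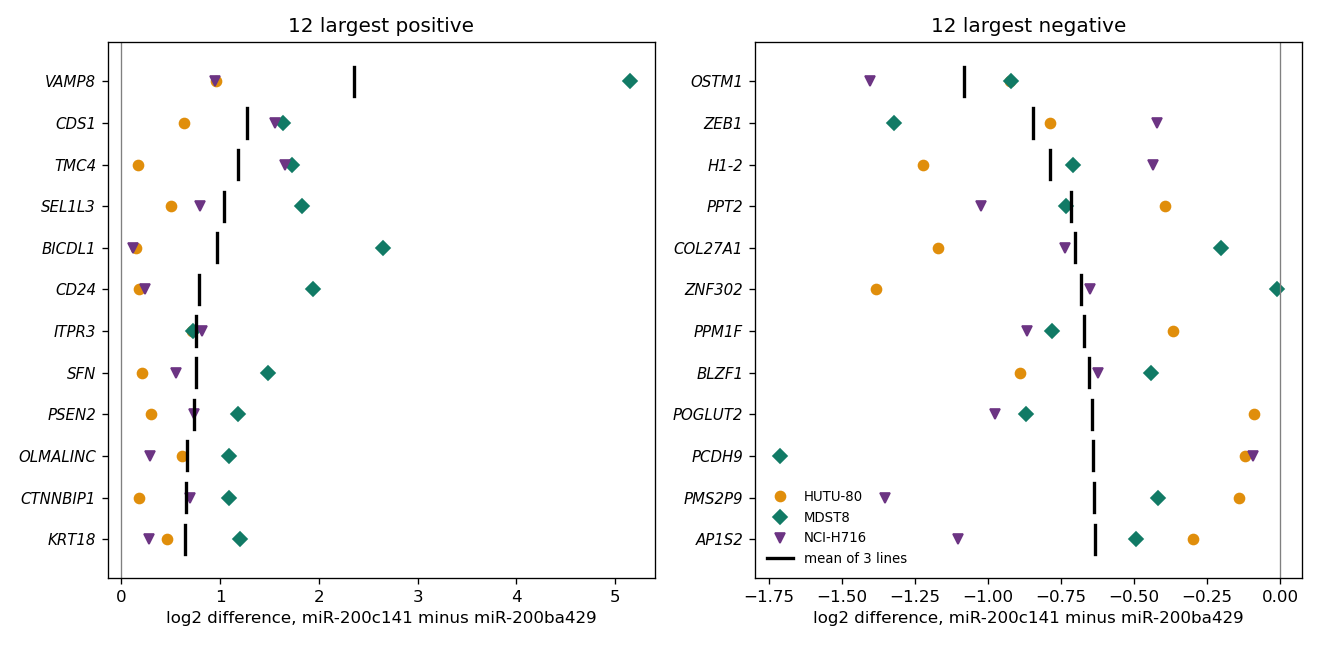
Log2 difference between miR-200c141 and miR-200ba429 (horizontal axis) for the 12 largest positive (left) and 12 largest negative (right) mean differences among measurable genes with 1 sign in all lines; symbols are lines and the bar is the mean. The line symbols of ITPR3 lie within 0.72 to 0.82, whereas for VAMP8, BICDL1, CD24 and PCDH9 the MDST8 symbol lies far from the other 2.

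On the negative side, OSTM1, the partner subunit of a lysosomal chloride transporter, had the largest negative mean difference among measurable genes and the smallest p of all genes. In HUTU-80 it stood at 7.30 and 7.69 with miR-200c141, 8.42 with miR-200ba429 and 9.12 in the control. In MDST8 it stood at 7.75, 8.67 and 8.79 and in NCI-H716 at 6.59, 7.997 and 8.40, in the same order. The value with miR-200c141 was the lowest in each line, and that with miR-200ba429 differed from the control by −0.70 in HUTU-80 and −0.40 in NCI-H716. The mean was −1.08 ± 0.14 (95% interval −1.41 to −0.76, limma adjusted p = 0.2544). Leaving out MDST8 gave −1.16, which passed (limma adjusted p = 0.03455), and averaging its probe sets gave −0.74, which did not.

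PPT2, a lysosomal thioesterase, had a mean of −0.72 ± 0.19, COL27A1, a fibrillar collagen, one of −0.70 ± 0.17 and the linker histone H1-2 one of −0.79 ± 0.15. H1-2 stood at 10.03 and 9.73 with miR-200c141, 11.10 with miR-200ba429 and 9.63 in the control of HUTU-80, so that there the miR-200ba429 array was the one apart from control. POGLUT2, an enzyme that adds glucose to secreted proteins, had a mean of −0.65 ± 0.18, and AP1S2, a subunit of a clathrin adaptor, one of −0.63 ± 0.13. KCTD20 had a mean of −0.60 ± 0.19 and ZNF302, a zinc finger protein, one of −0.68 ± 0.23, with no distance in MDST8 (7.79 against 7.80). Both HUTU-80 arrays of ZNF302 with miR-200c141 were under background (4.85 and 4.59, against 6.11), and without that line its mean was −0.33. SAR1A, the GTPase that starts coat assembly at the endoplasmic reticulum, had a mean of −0.52 ± 0.12 with the probe set used, but 2 other SAR1A probe sets above background differed by 0.015 and 0.092, and the mean of all was −0.14. PMS2P9, with a mean of −0.64 ± 0.22, is a pseudogene with near-identical copies, and its probe set may not tell them apart. With miR-200c141, PPT2 and PCDH9 in MDST8, the HUTU-80 mean of COL27A1, and PPM1F in NCI-H716 lay under background.

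The following 6 genes, named because they lay on opposite sides of the control with the clusters in each line, are given as examples of that arrangement. Both differences from control share the control array of the line, so the arrangement itself is not a result. BLZF1, a Golgi matrix protein, differed from control by −0.25, −0.32 and −0.29 with miR-200c141 and by 0.64, 0.13 and 0.34 with miR-200ba429 in HUTU-80, MDST8 and NCI-H716. PCDH9, a protocadherin, did so with a distance that came from MDST8, where it stood at 5.14 with miR-200c141, 6.85 with miR-200ba429 and 6.04 in the control. In the remaining lines the PCDH9 clusters were within 0.12 of each other. SAMD4B and NUMBL, a regulator of Notch signalling, also stood below control with miR-200c141 and above it with miR-200ba429, with mean differences of −0.56 ± 0.18 and −0.40 ± 0.14. Another SAMD4B probe set above background differed by 0.148, and the mean of all its probe sets was −0.06. ANGEL1 and ZNF138 had the opposite arrangement (0.44 ± 0.15 and 0.37 ± 0.14). The distances of these 4 genes from control were mostly under 0.4.

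The promoter windows of the 4 measurable genes higher by 1 or more with miR-200c141 were read for the E-box that ZEB1 is known to bind. CDS1, TMC4 and SEL1L3 hold it and VAMP8 holds none. The windows of these 3 (250 bases before to 50 after the start of the gene, RefSeq, GRCh38.p14) are shown with that motif, CACCTG or its reverse complement CAGGTG, in capitals. Each is written 5′ to 3′ on the gene's own strand. CDS1 lies at chr4:84582877-84583176 on the plus strand, TMC4 at chr19:54173111-54173410 on the minus strand, and SEL1L3 at chr4:25863517-25863816 on the minus strand.
CDS1: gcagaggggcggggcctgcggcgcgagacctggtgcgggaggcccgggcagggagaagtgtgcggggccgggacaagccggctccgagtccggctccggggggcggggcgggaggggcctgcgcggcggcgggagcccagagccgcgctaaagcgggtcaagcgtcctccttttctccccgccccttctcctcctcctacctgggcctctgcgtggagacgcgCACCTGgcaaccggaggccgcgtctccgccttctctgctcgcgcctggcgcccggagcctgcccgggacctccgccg
TMC4: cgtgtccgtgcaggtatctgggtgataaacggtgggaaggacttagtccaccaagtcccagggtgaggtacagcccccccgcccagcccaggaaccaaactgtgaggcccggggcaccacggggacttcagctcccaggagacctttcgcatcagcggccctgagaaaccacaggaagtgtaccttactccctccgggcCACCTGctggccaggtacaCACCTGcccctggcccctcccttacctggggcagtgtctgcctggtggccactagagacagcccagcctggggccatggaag
SEL1L3: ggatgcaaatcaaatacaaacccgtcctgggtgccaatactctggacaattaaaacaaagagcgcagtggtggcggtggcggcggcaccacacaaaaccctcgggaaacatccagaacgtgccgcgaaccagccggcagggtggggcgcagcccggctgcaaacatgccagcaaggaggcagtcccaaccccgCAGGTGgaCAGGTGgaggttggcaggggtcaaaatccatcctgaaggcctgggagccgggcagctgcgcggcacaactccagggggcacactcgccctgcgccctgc
The CDS1 window holds 1 such E-box, 27 bases before the start, and the TMC4 and SEL1L3 windows hold 2 each. Of the 12 genes with the largest positive differences, 10 had a window in the table and 5 of these (CDS1, PSEN2, SEL1L3, SFN and TMC4) held the motif on either strand. The windows of VAMP8, ITPR3, CD24, CTNNBIP1 and OLMALINC held 0. Of the 12 with the largest negative differences, 11 had a window and 2 (PPM1F and ZEB1) held it. The motif was found in 7231 of 35116 windows of this length (20.6%). A match describes letters in a window and does not show that a factor binds there. The genes were chosen by their differences in these same data, and whether ZEB1 has a part in those differences was not tested.

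Mesenchymal markers had values of both signs. Of 39 measured, 23 had a negative and 16 a positive mean (median −0.044), with 13 lower with miR-200c141 in all lines (33.3%, against 11.9% of all genes) and 1 higher (2.56%). Only 5 were measurable. VIM, the intermediate filament vimentin, stood at 12.06 and 11.80 with miR-200c141 and 12.07 with miR-200ba429 in HUTU-80, at 13.14 and 13.21 in MDST8 and at 11.18 and 11.78 in NCI-H716 (−0.27 ± 0.09). CDH2, the cadherin of mesenchymal cells, had a mean of 0.04 ± 0.15. CALD1, an actin-binding protein, was lower with miR-200c141 in HUTU-80 (8.13 and 7.82 against 9.20) and higher in MDST8 (11.67 against 11.31). COL1A1, a chain of fibrillar collagen, was higher with miR-200c141 in NCI-H716 (6.72, against 5.12 with miR-200ba429 and 3.19 in the control, both under background). LUM, a matrix proteoglycan, was higher with miR-200c141 than with miR-200ba429 in MDST8 (9.17 against 8.04, with 9.30 in the control).

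TGF-beta targets had a median of −0.108 over 19 genes, with 14 negative, 3 lower in all lines (15.8%, near the 11.9% of all genes) and 0 higher. The list median was −0.367 in NCI-H716, where 3 of 19 were positive, and −0.020 in HUTU-80 and 0.059 in MDST8, and without NCI-H716 the median of the means was −0.033. ID2, an inhibitor of basic helix-loop-helix factors, had a mean of −0.39 ± 0.14 and SKIL, a repressor of SMAD signalling, one of −0.30 ± 0.10, both lower with miR-200c141 in each line.

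**Figure D4:**
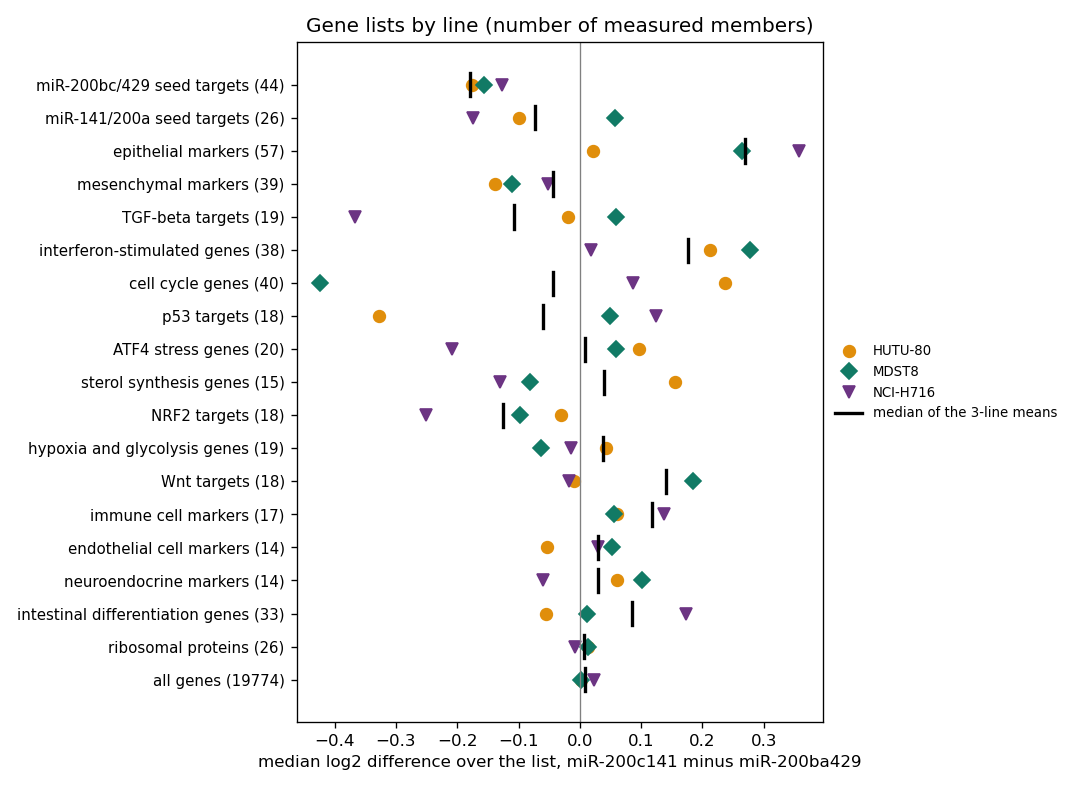
Median log2 difference between miR-200c141 and miR-200ba429 (horizontal axis) over the measured members of each gene list, by line (symbols) and for the 3-line means (bars); the number of measured members follows each name. Epithelial markers lie highest in NCI-H716 at 0.358, cell cycle genes lie at −0.423 in MDST8 and 0.236 in HUTU-80, and all genes lie near 0.

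Interferon-stimulated genes, the response to viral nucleic acid and interferon, were mostly higher with miR-200c141. Of 38 measured, 29 had a positive and 9 a negative mean, with a median of 0.177. In all lines 11 were higher (28.9%, against 13.7% of all genes) and 0 lower. An unadjusted limma p under 0.05 was seen for 8 of the 38, all higher, while 0 passed over all genes. Of all genes, 2.66% were higher and 2.38% lower at that p. Only 11 of the 38 were measurable, 9 with a positive and 2 with a negative mean, so many of the list's differences are between dim signals. The medians were 0.212 in HUTU-80, 0.277 in MDST8 cells and 0.018 in NCI-H716. Relative to control, they were 0.020, 0.148 and −0.036 with miR-200c141 and −0.308, −0.152 and −0.061 with miR-200ba429, in the order HUTU-80, MDST8 and NCI-H716. The 2 HUTU-80 arrays with miR-200c141 themselves differed by −0.166 in this median, the 1:3 array being lower. Among the immune markers, with 0 measurable members, 4 of 17 were also higher in all lines (23.5%) and 0 lower.

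ISG15, a ubiquitin-like protein, stood at 9.20 and 9.56 with miR-200c141, 8.98 with miR-200ba429 and 8.93 in the control of HUTU-80. It stood at 8.27, 7.75 and 7.71 in MDST8 and at 6.82, 6.06 and 6.09 in NCI-H716, in the same order. Here miR-200ba429 differed from the control by no more than 0.054 in any line, and the mean difference was 0.56 ± 0.13. IFI35, another interferon-induced protein, had a mean of 0.60 ± 0.16 with the control between the clusters in MDST8 and NCI-H716. IFI6, an inhibitor of apoptosis and viral replication, was the measurable gene furthest above miR-200ba429 in HUTU-80, at 6.17 and 7.44 against 5.43. The distance between its 2 arrays with miR-200c141 was nearly as large as that to miR-200ba429, and in NCI-H716 the order was the other way (6.85 against 7.05). ISG20, an exonuclease, was lower with miR-200c141 in HUTU-80 (4.23 and 3.55, both under background, against 5.63) and higher in MDST8 (5.94 against 4.10).

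Cell cycle genes differed in opposite directions between the lines, so that their mean hides the distances. In MDST8 all 40 were lower with miR-200c141, with a median of −0.423. In HUTU-80 37 of 40 were higher (median 0.236), and in NCI-H716 27 were higher (median 0.087). None had 1 sign in all lines, and over the 3-line means the median was −0.043. Relative to control, the medians were −0.081, −0.119 and −0.046 with miR-200c141 in HUTU-80, MDST8 and NCI-H716. With miR-200ba429 they were −0.338, 0.350 and −0.124, so by this median the arrays of miR-200ba429 lay further from control than those of miR-200c141 in each line. Between the 2 HUTU-80 arrays with miR-200c141 the median differed by −0.088. No test of the difference between lines was possible with 1 pair per line.

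MCM2, a subunit of the replicative helicase, stood at 10.61 on both HUTU-80 arrays with miR-200c141 and 10.65 in the control, against 10.08 with miR-200ba429. In MDST8 it stood at 7.79 with miR-200c141, 8.21 with miR-200ba429 and 8.20 in the control. ORC1, of the origin recognition complex, is outside the list and was named for its HUTU-80 difference. It stood at 6.56 and 6.45 with miR-200c141 and 5.52 with miR-200ba429 in HUTU-80, and at 6.24 and 5.73 in NCI-H716. In MDST8 it stood at 5.17 with miR-200c141, under background, and at 5.88 with miR-200ba429. CDC6, which loads the helicase, and CENPE, a motor of the kinetochore, differed by −0.74 and −0.72 in MDST8. E2F8, a repressor of E2F targets, is also outside the list and was named for its MDST8 difference. In that line it stood at 5.97 with miR-200c141, 7.30 with miR-200ba429 and 6.26 in the control. HUTU-80 and MDST8 thus had opposite orders for MCM2 and ORC1.

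**Figure D5:**
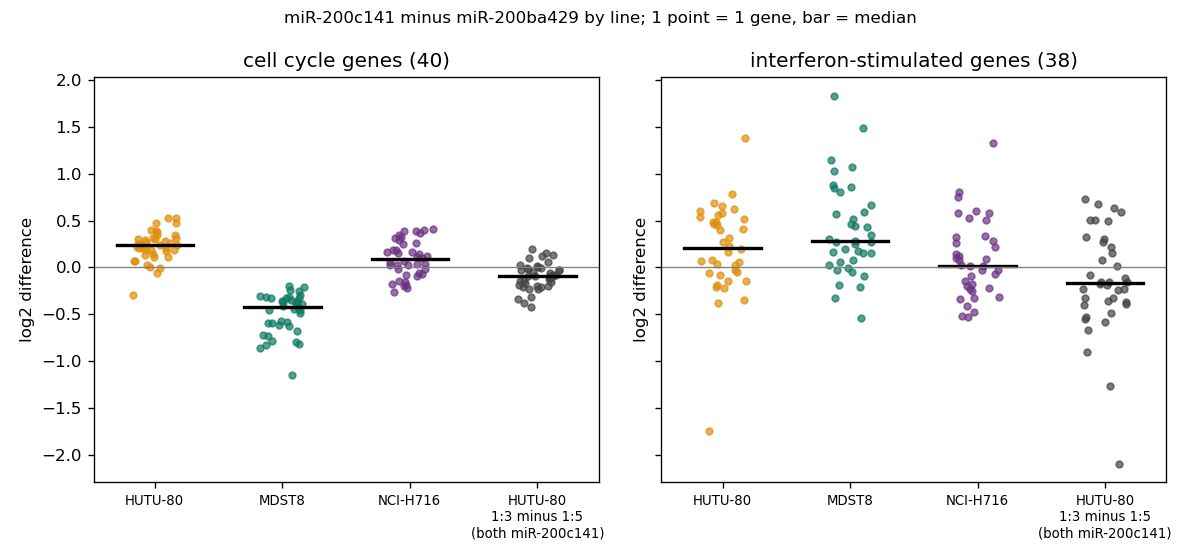
Log2 difference between miR-200c141 and miR-200ba429 in each line (first 3 columns) and between the 2 HUTU-80 arrays with miR-200c141 (last column) for 40 cell cycle genes (left) and 38 interferon-stimulated genes (right); 1 point is 1 gene and the bar is the median, with points spread sideways for legibility. All cell cycle points lie below 0 in MDST8, and the bars of the interferon panel lie at 0.212, 0.277, 0.018 and −0.166.

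NRF2 targets, the oxidative stress and glutathione genes, were lower with miR-200c141 in 15 of 18 cases (median −0.125), 8 of them in all lines (44.4%, against 11.9% of all genes), with 0 past the test. Only 8 of the 18 were measurable, 9 lay at or below background in the HUTU-80 control, and the median was −0.219 without HUTU-80. Relative to control, the list median was −0.060, −0.082 and 0.091 with miR-200c141 and 0.063, 0.132 and 0.398 with miR-200ba429 in HUTU-80, MDST8 and NCI-H716. GCLM, the modifier subunit of glutamate-cysteine ligase in glutathione synthesis, stood at 9.10 and 9.22 with miR-200c141, 9.71 with miR-200ba429 and 9.23 in the control of HUTU-80. In MDST8 it stood at 8.21, 8.99 and 8.19, and in NCI-H716 at 9.79, 9.97 and 9.10. With miR-200c141 it stood close to the control in HUTU-80 and MDST8, while miR-200ba429 stood above the control in each line, and the mean difference was −0.50 ± 0.12.

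TXNRD1, thioredoxin reductase, had a mean of −0.27 ± 0.07. SLC7A11, the cystine transporter, was listed here among the ATF4 stress genes and not among the NRF2 targets. It had a mean of −0.52 ± 0.17 that was largest in MDST8 (7.69 against 8.81). HMOX1, heme oxygenase, chosen after its values were seen because it lay under background in NCI-H716, stood at 9.31 and 9.10 against 10.25 in HUTU-80, 7.33 against 8.31 in MDST8 and 3.57 against 4.69 in NCI-H716. Its mean was −1.05 ± 0.14 (limma adjusted p = 0.2544).

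In the remaining lists no gene passed the test. Targets of p53 had a median of −0.060 over 18 genes, with −0.328 in HUTU-80, 0.049 in MDST8 cells and 0.124 in NCI-H716. ZMAT3, a p53-induced zinc finger protein, had a mean of −0.45 ± 0.12, and CDKN1A, the cell cycle inhibitor p21, one of 0.20 ± 0.21. ATF4 stress genes had a median of 0.008 over 20 genes, sterol synthesis genes 0.039 over 15, hypoxia and glycolysis genes 0.037 over 19 and ribosomal proteins 0.007 over 26. DDIT4, an inhibitor of mTOR signalling that responds to stress, had a mean of −0.02 ± 0.21 that averages unlike values, with 0.77 in MDST8 against −0.51 in HUTU-80 and −0.31 in NCI-H716. Wnt targets had a median of 0.141 over 18 genes, 14 of them with a positive mean and 4 measurable. In all lines 4 were higher (22.2%, against 13.7% of all genes) and 2 lower (11.1%, against 11.9%). The positive median came from MDST8, where it was 0.185 with 13 genes positive. For NCI-H716 and HUTU-80 the medians were −0.018 and −0.010, with 8 and 9 genes positive. With all probe sets averaged, the Wnt median was 0.055, with 0 genes higher in all lines and 1 lower. Immune (0.118), endothelial (0.029), neuroendocrine (0.030) and intestinal differentiation lists (0.085) held 0, 0, 1 and 0 measurable members, so their medians describe dim signals.

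The genes with the widest differences within a single line are given next, as a description of 1 pair each. In HUTU-80, FLRT3, an adhesion and guidance receptor, stood at 3.78 and 3.38 with miR-200c141, 5.63 with miR-200ba429 and 3.28 in the control. All of these but the miR-200ba429 value were under background. HINT3, a nucleotide hydrolase, stood there at 7.14 and 5.99 with miR-200c141 and 8.34 with miR-200ba429, with 6.24 in the control. S100A16, a calcium-binding protein, was likewise higher with miR-200ba429 in HUTU-80 (3.97 and 4.83 against 5.81). Of its HUTU-80 values, only that with miR-200ba429 was above background. In these 3 cases the miR-200ba429 array was the one furthest from control. Over the 3 lines, another FLRT3 probe set above background had a mean difference of −0.206, against −0.807 with the one used.

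In MDST8, DACH1, a transcriptional regulator, stood at 9.30 with miR-200c141, 6.95 with miR-200ba429 and 6.003 in the control. CDH6, a cadherin, stood there at 6.25, 8.18 and 9.47 in the same order, and AHI1, a protein of the primary cilium, at 7.03, 8.55 and 8.30. For DACH1 and CDH6, miR-200ba429 lay between control and miR-200c141. In NCI-H716, IGFBP3, a binding protein of insulin-like growth factors, stood at 5.93 with miR-200c141, 4.27 with miR-200ba429, under background, and 4.38 in the control. In HUTU-80 its order was the other way, at 7.51 and 6.91 with miR-200c141 and 8.09 with miR-200ba429. RHOB, a small GTPase, stood in NCI-H716 at 7.99 with miR-200c141, 9.38 with miR-200ba429 and 7.37 in the control. CALML4, a calmodulin-like protein, stood at 9.34, 8.69 and 7.91 in NCI-H716, in the same order. In HUTU-80 it stood at 6.05 and 6.65 with miR-200c141 and, under background, at 5.38 with miR-200ba429. Its order was the other way in MDST8 (5.97 with miR-200c141 against 6.93 with miR-200ba429).

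ELOVL7, a fatty acid elongase, separated the clusters in 2 lines. It stood at 7.00 with miR-200c141 against 5.20 with miR-200ba429 in MDST8, and at 5.92 against 4.34 in NCI-H716. In both lines the value with miR-200ba429 was under background, so ELOVL7 counted as measurable there through miR-200c141 alone. In HUTU-80, where the control was at 3.39, it stood at 6.85 and 6.52 with miR-200c141 and at 7.03 with miR-200ba429, so there the clusters were close together and both above control.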

How the data were processed

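Biotin-labelled RNA was hybridised to Affymetrix U133 Plus arrays, per the labels. The authors deposited 1 log2 intensity for each probe set, summarised with RMA per the submitters' processing notes, by software not given in the sources used here, and these values entered unaltered. Of 54715 probe sets, 40914 name 1 gene, 864 several, 12835 none and 102 are controls. For each of 19774 genes the brightest probe set on average over the arrays was taken (10550 had several).

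The clusters were compared with limma 3.58.1 in R 4.3.3 (package data.table, version 1.17.8), with cell line as a term, trended moderation, two-sided tests and a threshold of 0.05 on p adjusted over all genes by Benjamini and Hochberg. Residual degrees of freedom were 2, and precision is limited by the number of arrays. The line pairs the samples, since a pair comes from the same cell line (r within a line at least 0.9919). As the labels name no separate cultures, p-values measure the spread between these samples, which may be technical. The fit was tested on simulated data.

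Members, gene lists (from textbook knowledge) and the comparison were chosen with earlier results of these data known. Named genes are, among measurable genes, the 12 largest mean differences of 1 sign in all lines each way, the 5 smallest p each way, the 4 largest differences each way in each line, 6 genes on opposite sides of control, the 2 largest each way in each list, and a fixed set of family targets and epithelial or mesenchymal genes. HMOX1, H2BC5, H2BC8, H3C2 and JUN were added after their values were seen. Of 115 genes the rule named, 81 had several probe sets and 3 (CALD1, CDH6 and IRF1) another above background with a difference of opposite sign over 0.2. Alternatives changed the samples, block, HUTU-80 arrays, probe sets, filter, scaling and moderation.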

Additional observations from a re-analysis of the deposited data

Results flagged for a closer look

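ISG20 and the cell cycle genes differed in opposite directions in HUTU-80 and MDST8. ISG20 stood at −1.745 in HUTU-80 and 1.834 in MDST8 (log2, miR-200c141 minus miR-200ba429), with both HUTU-80 arrays of miR-200c141 and the MDST8 array of miR-200ba429 under background. The median of the cell cycle genes stood at 0.236 in HUTU-80 and −0.423 in MDST8. Each line has 1 pair, so neither difference between lines was tested.

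Among the 12835 probe sets that name no gene, 1 was called by limma over those probe sets, with a difference of −0.22 ± 0.04 (SE, adjusted p = 0.03166). It stood at 12.83 with miR-200c141, 13.10 with miR-200ba429 and 12.87 in the control of HUTU-80, at 12.94, 13 and 12.81 in MDST8, and at 13.15, 13.47 and 13.21 in NCI-H716. At an unadjusted p under 0.05 there were 870 such probe sets.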

How the results depend on the processing

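The count of called genes was 0 under every setting with all 3 lines, with smallest limma adjusted p between 0.05269 (HUTU-80 arrays as separate samples) and 1 (all 11 samples in the fit, and no block for the line). Without the replicate block that pairs samples by line, 0 genes were called and 220, against 997, had an unadjusted p under 0.05. Leaving out 1 line at a time gave between 0 and 7 called genes: 1 without HUTU-80 (CDS1), 7 without MDST8 (EPCAM, H2BC5, H2BC8, HIPK3, JUN, OSTM1 and VAMP8) and 0 without NCI-H716. These fits have 1 residual degree of freedom. The 16 genes of 1 sign with a mean of 1 or more became 7 with all probe sets averaged and between 23 and 62 with 1 line left out, where fewer lines must have 1 sign.

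Of 93 gene results, 69 kept their sign under every setting. ISG20 stood at 0.10 with the 1:3 array alone and at 0.08 with probe sets averaged, and RECK at 0.01 with probe sets averaged; the cause was not tested. With 1 line left out, the sign turned within these ranges: ORC1 −0.10 to 0.75, CALML4 −0.15 to 0.81, ISG20 −0.94 to 0.85, S100A16 −0.74 to 0.12, CALD1 −0.64 to 0.15, MCM2 −0.01 to 0.47, QKI −0.39 to 0.20, CTNNB1 −0.14 to 0.07, DDIT4 −0.41 to 0.23, DACH1 −0.14 to 1.15, CDH6 −0.89 to 0.30, AHI1 −0.77 to 0.08, E2F8 −0.54 to 0.35, LUM −0.01 to 0.60, TGFB2 −0.04 to 0.69, MYO5B −0.05 to 0.62, SUZ12 −0.14 to 0.06, IGFBP3 −0.57 to 0.70, COL1A1 −0.13 to 0.92, RHOB −0.83 to 0.06, CDKN1A −0.11 to 0.52, CDH1 −0.06 to 1.25 and CDH2 −0.09 to 0.16. Of 144 list medians recomputed, 6 moved beyond the spread over lines and 12 changed sign, among them the cell cycle genes (0.151 without MDST8) and p53 targets (0.103 without HUTU-80).

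Limits are the single pair per line, the single control array behind both clusters' differences from control, background in most epithelial markers of HUTU-80 and MDST8, and the unmeasured amount of each microRNA.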

Other observations

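Replication-dependent and other histone genes, a list made after the values were seen by the pattern of their symbols, had mostly negative differences. Of all 56, 38 had a negative mean (median −0.110), and the median in MDST8 was 0.022. In all lines 13 of the 56 were lower, against 11.9% of all genes, and 7 were higher, against 13.7%. Of 23 above background in at least 1 of the 6 samples, 22 had a negative mean (median −0.298), 10 were lower in all lines and 1 higher. A gene could enter this set through the cluster in which it was high. By line, 21 of the 23 were negative in HUTU-80, 15 in MDST8 (median −0.062) and 16 in NCI-H716 (median −0.105). Of the 10 measurable histone genes, 9 had a negative mean, 5 were lower in all lines and 1 higher. None of the tests over all 3 lines called a histone gene. In HUTU-80 the median of the 23 was 0.366 above control with miR-200c141 and 1.208 above control with miR-200ba429. The array with miR-200ba429 thus lay furthest from control there. In MDST8 these medians were −0.211 and 0.041, and in NCI-H716 0.028 and 0.310. H2BC8, a core histone, stood at 9.18 and 8.54 with miR-200c141, 9.92 with miR-200ba429 and 7.79 in the control of HUTU-80, and at 7.10, 8.11 and 7.52 in NCI-H716. H3C2 stood at 5.05 and 5.47 with miR-200c141, 6.92 with miR-200ba429 and 4.80 in the control of HUTU-80. Its HUTU-80 mean with miR-200c141, at 5.26, was under background, as were its values with both clusters in MDST8 and NCI-H716. In MDST8, H2BC8 was also under background with miR-200c141 (3.09) and miR-200ba429 (3.38).

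JUN, an immediate early transcription factor, stood at 10.40 with miR-200c141 in NCI-H716, against 11.42 with miR-200ba429 and 10.46 in the control. In HUTU-80 it stood at 9.32 and 9.03 with miR-200c141, 9.68 with miR-200ba429 and 8.60 in the control, and in MDST8 at 11.21, 11.25 and 11.34.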
